A study of Rattus norvegicus with 10 samples.

Results

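The genes described here serve the making of collagen, from the modification of its chains in the endoplasmic reticulum to its export in COPII-coated carriers and its processing outside the cell. They were chosen by symbol from a list of 42 symbols, 16 of hydroxylases and chaperones, 15 of COPII export and 11 of extracellular processing. Ctage5 and Mia2, both on the list, are names of 1 gene in RefSeq. Of these symbols, 31 matched a row of the deposited table of 10184 genes, and 28 of the 31 were abundant enough to be tested. RCS cells, which come from a chondrosarcoma of the rat and lay down cartilage matrix in culture, were sequenced as 5 libraries with ARSL intact (wild type, WT) and 5 with ARSL knocked out (KO). RNA was taken 48 h after seeding from cells that had received no treatment, grown in DMEM with serum, antibiotics and glutamine. The product of ARSL, known as arylsulfatase L, is a sulfatase found along the secretory pathway. The labels do not say whether the KO libraries come from 1 clone, so an effect of the deletion and a difference between lines of another origin cannot be told apart. The labels call the libraries biological replicates but do not say that they were separate cultures, so p-values measure the spread between these libraries, which may be technical. Neither Arsl nor Arse is among the symbols of the table, and the labels were not checked against the level of the targeted gene.

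Fibrillar procollagen is built in the endoplasmic reticulum, where proline and lysine residues are hydroxylated before the chains wind into a helix that dedicated chaperones hold and release. The finished molecule is too long for an ordinary transport vesicle, and TANGO1, the product of Mia3, helps to form a larger COPII-coated carrier for it. Outside the cell, proteases remove the propeptides, enhancer proteins speed that step, and lysyl oxidases start the cross-links that join the fibrils. Cartilage depends on this route because its matrix is rich in collagens II, IX and XI.

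The libraries held 2065594 to 2591819 reads over the listed genes. WT 3 and WT 4 stood apart on the first principal component of all tested genes, which held 51.1% of the variance, with scores of 28.0 and 26.8. KO 4, at 7.91, lay between them and the other 7 libraries, which scored -15.0 to -2.96. Results are given with all 10 libraries and with the 7 that remain without WT 3, WT 4 and KO 4 (WT 1, 2 and 5; KO 1, 2, 3 and 5). Of 13 chondrocyte markers, 11 had a row, among them Col2a1, Acan and Matn1 but not Sox9, and their summed level was 39799 to 64594 normalised reads in WT and 38721 to 50727 in KO. Normalised reads are reads divided by the size factor of the library. They are not corrected for gene length, so sums over genes and ratios of genes are compared only between libraries, and levels of different genes are not ranked. Of the fibroblast markers 2 of 8 had a row, Thy1 and Pdgfra, with sums of 12.2 to 49.2 in WT and 16.6 to 41.0 in KO. Of 5 markers each, 1 endothelial (Vwf, 9.23 to 44.9 over all libraries), 2 leukocyte (Cd14 and Cd68, 11.6 to 19.7) and 1 epithelial (Krt8, 396 to 510) had a row.

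The start regions of 4 of the members that were called are shown here. PCOLCE2 was the member that fell with all libraries, Pcolce is its close relative, and Sec31a and Mia3 are the COPII export genes that changed without the 3 libraries. P3h4 and Fkbp10, which also changed without the 3 libraries, are not shown. Sequences are the 250 bases before the RefSeq transcription start on the rat build GRCr8, 5′ to 3′ on the strand of the gene. They lie at chr8:105072836-105073085 (plus strand) for PCOLCE2, chr12:24720722-24720971 (plus) for Pcolce, chr14:9518487-9518736 (plus) for Sec31a and chr13:97519620-97519869 (minus) for Mia3. Capitals mark matches on either strand to the GC box GGGCGG, to the hypoxia response core ACGTG and to the core of CREB and ATF family sites, TGACGT.
PCOLCE2: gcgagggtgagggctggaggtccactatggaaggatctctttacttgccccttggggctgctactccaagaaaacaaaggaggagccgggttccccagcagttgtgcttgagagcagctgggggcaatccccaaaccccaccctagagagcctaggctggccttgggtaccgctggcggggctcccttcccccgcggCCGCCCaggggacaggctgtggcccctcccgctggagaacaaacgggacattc
Pcolce: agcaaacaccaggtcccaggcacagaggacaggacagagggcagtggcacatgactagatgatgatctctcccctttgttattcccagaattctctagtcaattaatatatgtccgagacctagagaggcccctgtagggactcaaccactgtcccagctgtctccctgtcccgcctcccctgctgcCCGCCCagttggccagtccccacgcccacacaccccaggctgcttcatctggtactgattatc
Sec31a: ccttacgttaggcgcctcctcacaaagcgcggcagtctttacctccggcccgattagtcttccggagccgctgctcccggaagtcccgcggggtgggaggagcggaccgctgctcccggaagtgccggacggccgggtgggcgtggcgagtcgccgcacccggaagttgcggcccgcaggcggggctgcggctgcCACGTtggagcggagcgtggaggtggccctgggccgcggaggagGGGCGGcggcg
Mia3: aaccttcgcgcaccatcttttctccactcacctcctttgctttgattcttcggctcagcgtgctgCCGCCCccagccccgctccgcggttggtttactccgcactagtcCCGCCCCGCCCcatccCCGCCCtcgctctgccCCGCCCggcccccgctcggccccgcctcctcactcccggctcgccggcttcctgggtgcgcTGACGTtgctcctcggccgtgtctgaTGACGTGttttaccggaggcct

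PCOLCE2 and Pcolce each held the GC box at 1 place and neither of the other motifs. Sec31a held ACGTG and the GC box at 1 place each, and the Mia3 window held TGACGT at 2 places, ACGTG at 1 (overlapping one of them) and the GC box at 5. RefSeq sequences were found for 26 of the 31 genes (not Bmp1, Fkbp10, Loxl2, Sec24c and Sec24d). TGACGT was present in 4 of the 26 (15.4%), Mia2, Mia3, Sec23a and Sec23b, which all belong to the COPII class, against 6.95% of all 33469 promoters in the table and 11.9% of the 7021 promoters of tested genes. ACGTG was present in 9 of 26 (34.6%), including P3h4, P4ha2 and Plod2, against 16.6% of all promoters and 23.6% of those of tested genes. GGGCGG was present in 17 of 26 (65.4%), against 30.5% and 60.2%. The letters TGACGTGG, which contain both TGACGT and ACGTG, stood in the Sec23a window alone (0.52% of all promoters and 0.84% of those of tested genes). CCAAT was found in 7 of 26 (26.9%; 34.0% and 36.6%) and TATAAA in 4 of 26 (15.4%; 12.9% and 5.63%). The remaining motifs searched, the E box CACGTG, the SOX motif ACAATG and the endoplasmic reticulum stress response element, had no match among the 26 (5.59%, 11.1% and 0.0657% of all promoters, and 8.84%, 5.91% and 0.157% of those of tested genes). These matches describe the letters only.

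The hydroxylases and chaperones shared a pattern over libraries of the same genotype. WT 3 and WT 4 gave the 2 highest WT values for all 13 tested genes of this class, where 27.2% of all tested genes have that order. P4ha1, a catalytic subunit of prolyl 4-hydroxylase, had 1325 and 1182 normalised reads in WT 3 and WT 4 but 458, 513 and 438 in WT 1, 2 and 5. Its KO values were 667, 508, 502, 647 and 465, all below those of WT 3 and WT 4. Across the class the summed level was 24396 and 23078 in WT 3 and WT 4, 13779 to 16059 in the other WT libraries and 13975 to 19038 in KO. In the COPII class 3 of 9 tested genes had that order, and in extracellular processing 5 of 6. Of the further lists described below, 11 of 15 genes of modification and folding had it, and 7 of 22 of exit. So did 9 of 11 genes of fibril assembly and processing and 10 of 13 collagen chains. Sec13 and Loxl3 had the opposite order, with WT 3 and WT 4 lowest in WT, as did 29.0% of all tested genes. KO 4 gave the highest KO value for 7 of 13 hydroxylases and chaperones, 3 of 9 COPII genes and 3 of 6 processing genes, against 26.7% of all tested genes. The summed chondrocyte markers moved with this pattern, at 64255 and 64594 in WT 3 and WT 4 against 39799 to 42229 in the other WT libraries. Their highest KO sum was 50727 in KO 4. Col9a1 alone gave 21906 and 21988 of the sums in WT 3 and WT 4. Sox5 had WT 3 and WT 4 lowest in WT, and every other chondrocyte marker with a row had them highest. KO 4 was the highest KO library for Sox5, Sox6, Acan, Hapln1, Comp and Cnmd, but not for Col2a1, Col9a1, Col9a3, Matn1 and Matn3. The part of the markers in the pattern was not tested. In bulk RNA, fewer cells of a type and less RNA per cell cannot be told apart.

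**Figure D1:**
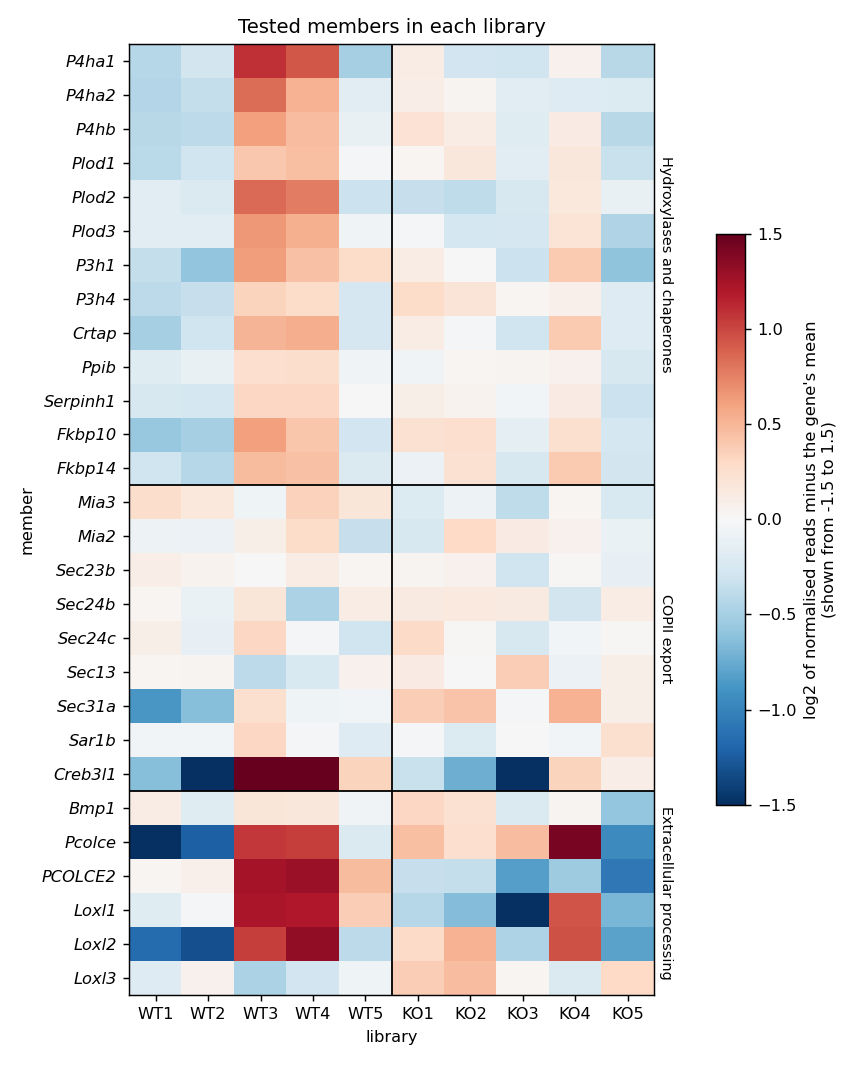
Each row is a tested member, each column a library, and colour is the log2 of its normalised reads minus the mean of that gene over the 10 libraries, from blue (below the mean) to red (above), with the extremes capped. WT 3 and WT 4 are red for every one of the 13 hydroxylases and chaperones in the top block.

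With all 10 libraries the knockout had 1 member that passed the test, PCOLCE2, which fell. The test was limma on the deposited values, a log2-like scale on which differences of weakly expressed genes are understated, with Benjamini-Hochberg adjustment over all 8431 tested genes and calls at an adjusted p under 0.05. That is 1 of 28 members against 1.14% of all tested genes (0.261% rose and 0.878% fell). With WT 3, WT 4 and KO 4 left out, 6 of 28 passed, where 3.56% of all tested genes did. P3h4, Fkbp10, Sec31a and Pcolce rose (1.34% of all tested genes), and Mia3 and PCOLCE2 fell (2.22% of all). That comparison has 3 WT and 4 KO libraries. It called 1 member, PCOLCE2, without WT 1 or WT 2 as well, and 3 without KO 1 or KO 2. Values of KO and WT did not overlap for 1 of 28 members with all libraries, PCOLCE2, where the share of all tested genes was 4.26% (1.86% with KO above WT and 2.4% below). Among the 7 libraries they did not overlap for 7 of 28, 4 with KO above WT and 3 below, against 14.6% of all tested genes (6.8% above and 7.79% below).

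**Figure D2:**
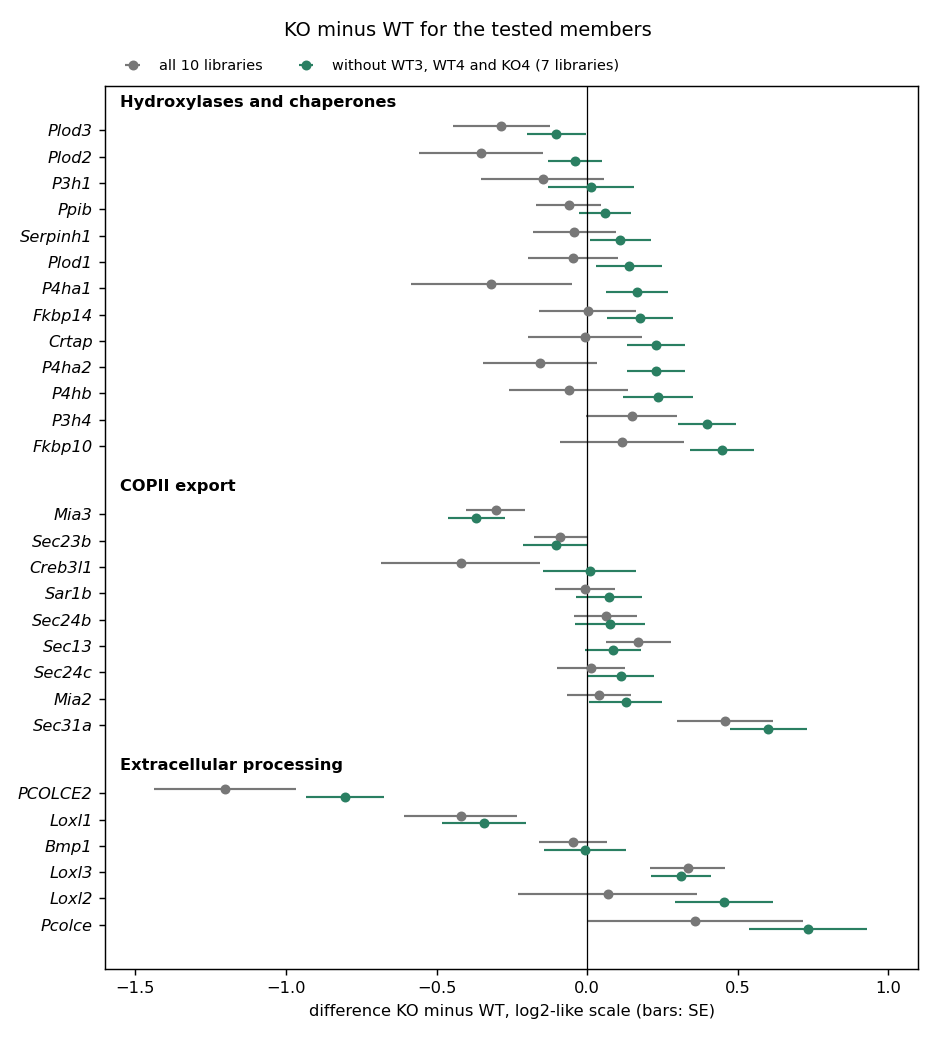
Points are KO minus WT on the log2-like scale for the 28 tested members by class, with all 10 libraries (grey) and with 7 (green), and bars are SE. PCOLCE2 lies farthest to the left in both sets, at -1.20 and -0.80, and the green points of 11 of the 13 hydroxylases and chaperones lie above 0.

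Of the 13 tested hydroxylases and chaperones none passed with all libraries, with a median difference of -0.06 and a range of -0.35 to 0.15, beside a median of 0.01 over all tested genes. Differences were above 0 for 3 of 13, against 52.1% of all tested genes. At an unadjusted p under 0.05 the limma count in this class was also 0, where 13.5% of all genes had such a p, and limma-voom on recovered reads called 0 of them as well. Over the 7 libraries limma counted 4 of 13 at an unadjusted p under 0.05, and limma-voom 5, where limma counted 15.9% of all tested genes. Over the 7 libraries 2 of 13 rose, 11 of 13 differences were above 0 (51.6% of all tested genes) and the median was 0.17. WT 3 and WT 4 gave the 2 highest WT values for all 13, so leaving them out lowered the WT mean of each. The count above 0 thus depends on the choice of libraries and does not count 13 independent genes.

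P3h4 encodes a protein of the prolyl 3-hydroxylase family that acts in a complex with the lysyl hydroxylase of collagen helices. It had 1623, 1668, 2689, 2575 and 1792 normalised reads in WT 1 to 5 and 2582, 2429, 2178, 2244 and 1856 in KO 1 to 5. With all libraries the groups overlapped and differed by 0.15 (SE 0.151; limma adjusted p = 0.688). Every KO library lay above WT 1, 2 and 5. In the 7 libraries P3h4 rose 1.33-fold in normalised reads, from 1694 ± 87.3 (SD, n = 3) to 2261 ± 317 (SD, n = 4; difference 0.40, SE 0.0968, limma adjusted p = 0.0174).

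Fkbp10, which encodes the prolyl isomerase FKBP65 that helps procollagen to fold, followed the same order. Its values were 703, 737, 1597, 1390 and 849 in WT and 1220, 1240, 937, 1227 and 862 in KO. All libraries together gave a difference of 0.12 (SE 0.206; limma adjusted p = 0.831). The lowest KO value, 862, lay just above the 849 of WT 5. Fkbp10 rose in the 7 libraries, by 1.40-fold, from 763 ± 76.6 (SD, n = 3) to 1065 ± 193 (SD, n = 4; difference 0.45, SE 0.107, limma adjusted p = 0.0157). For P3h4 and Fkbp10 alike, leaving out WT 1, WT 2, KO 1 or KO 2 as well ended the call, with limma adjusted p up to 0.117 and 0.113.

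The catalytic subunits of prolyl 4-hydroxylase did not pass in either set. P4ha2 had 243, 258, 592, 474 and 296 normalised reads in WT and 352, 339, 296, 288 and 287 in KO. Its difference was -0.16 (SE 0.191) with all libraries and 0.23 (SE 0.0974; limma adjusted p = 0.226) without the 3. P4ha1 differed by -0.32 (SE 0.268; limma adjusted p = 0.627) and by 0.17 (SE 0.102; 0.462). The sign of both thus depended on WT 3, WT 4 and KO 4. P4hb, the partner subunit that is also protein disulfide isomerase, ranged from 3107 to 6326 in WT and from 3098 to 4813 in KO.

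Among the lysyl hydroxylases, Plod2, which modifies the telopeptides that later cross-link, had 520, 498, 1043, 984 and 462 normalised reads in WT and 453, 442, 489, 644 and 534 in KO. KO 4 was the highest KO library and the groups overlapped. Its difference was -0.35 (SE 0.206; limma adjusted p = 0.484) with all libraries and -0.04 (SE 0.0892, 95% interval -0.22 to 0.14) without the 3. Plod3, which also adds sugars to hydroxylysine, had 327, 327, 575, 532 and 353 in WT and 364, 306, 307, 423 and 268 in KO, a difference of -0.28 (SE 0.161; limma adjusted p = 0.469). Without the 3 libraries the difference of Plod3 was -0.10 (SE 0.0968; limma adjusted p = 0.688). Plod1 ranged from 175 to 315 in WT and from 184 to 261 in KO.

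Crtap, the scaffold of the prolyl 3-hydroxylation complex, had 492, 566, 985, 1010 and 585 normalised reads in WT and 751, 679, 565, 909 and 608 in KO. It differed by -0.01 (SE 0.189) with all libraries and by 0.23 (SE 0.0959; limma adjusted p = 0.22) without the 3. P3h1, its catalytic partner, ranged from 194 to 450 in WT and from 192 to 383 in KO, and Ppib, the isomerase of the complex, from 1328 to 1813 and from 1284 to 1586. Serpinh1, which encodes the collagen chaperone HSP47, ranged from 4343 to 6466 in WT and from 4183 to 5683 in KO. The 95% interval of its difference was -0.34 to 0.25 with all libraries and -0.10 to 0.32 without the 3. Fkbp14 ranged from 130 to 243 in WT and from 143 to 228 in KO. P3h2 had 3 to 12 reads in each library and was not tested, and P4ha3 and P3h3 matched no row and were not analysed here.

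**Figure D3:**
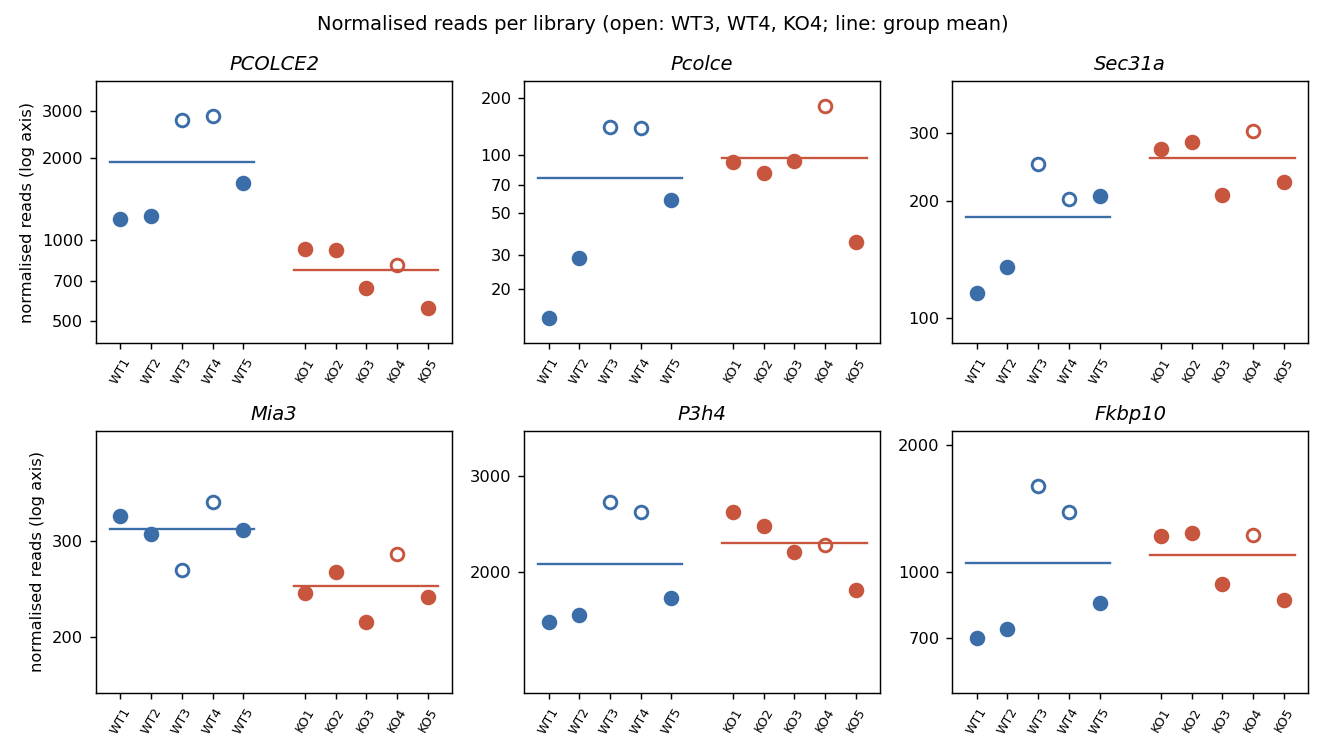
Normalised reads of 6 members in each library on a log axis, with WT in blue, KO in red, open symbols for WT 3, WT 4 and KO 4, and a line at the mean of each group. All KO points of PCOLCE2 lie below all WT points, and for Sec31a, P3h4 and Fkbp10 the filled KO points lie above the filled WT points.

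None of the 9 tested genes of COPII export passed with all 10 libraries. At an unadjusted p under 0.05 limma counted 2 of the 9, Sec31a and Mia3, against 13.5% of all tested genes. Limma-voom on recovered reads also counted 2 at that threshold, and called 0 at an adjusted p under 0.05. The summed level of the class was 1465 ± 53.8 (SD, n = 5) for WT and 1507 ± 40.6 (SD, n = 5) for KO in normalised reads, and the median difference was 0.01 with all libraries and 0.08 without the 3. Without the 3 libraries 1 of 9 rose, Sec31a (1.34% of all tested genes), and 1 fell, Mia3 (2.22% of all), and the same number, 2 of 9, had an unadjusted p under 0.05 (15.9% of all).

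Sec31a, which forms the outer COPII coat with Sec13, had 116, 135, 249, 203 and 206 normalised reads in WT and 273, 286, 208, 304 and 224 in KO. WT 3 reached into the KO range, while the 3 highest values were KO 1, 2 and 4. The difference was 0.46 (SE 0.161; limma adjusted p = 0.218), a 1.42-fold ratio of means. Among the 7 libraries Sec31a rose 1.62-fold, from 153 ± 47.4 (SD, n = 3) to 248 ± 37.5 (SD, n = 4; difference 0.60, SE 0.128, limma adjusted p = 0.00672). The lowest KO library there, KO 3 at 208, stood beside WT 5 at 206. The call ended without WT 1 or WT 2 as well (limma adjusted p 0.0786 and 0.0697). Sec13 had 385, 388, 288, 321 and 393 in WT and 410, 374, 485, 353 and 399 in KO, and differed by 0.17 (SE 0.109; limma adjusted p = 0.516).

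Mia3, which encodes the collagen export receptor TANGO1, went the other way. It had 333, 309, 265, 353 and 314 normalised reads in WT and 240, 263, 213, 283 and 237 in KO. With all libraries, WT 3 and KO 4 overlapped and the difference was -0.30 (SE 0.098; limma adjusted p = 0.179). Among the 7 libraries Mia3 fell 1.34-fold, from 319 ± 12.8 (SD, n = 3) to 238 ± 20.3 (SD, n = 4; difference -0.37, SE 0.0934, limma adjusted p = 0.0244). That call ended without WT 1, WT 2 or KO 3 as well (limma adjusted p up to 0.136). Mia2, a related export factor for which RefSeq gives Ctage5 as another name, had 52.9 to 81.3 in WT and 56.9 to 82.5 in KO.

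Neither Sec23b, Sec24b nor Sec24c of the inner coat passed in either set. Sec23b had 116 to 125 normalised reads in WT and 94.2 to 122 in KO, with a 95% interval of the difference of -0.28 to 0.10. Sec24c had 177 to 270 in WT and 185 to 266 in KO, with an interval of -0.23 to 0.25. Sec24b had 54.0, 49.4, 60.2, 38.2 and 57.1 in WT and 58.0, 58.7, 58.2, 43.9 and 57.4 in KO. KO 1, 2, 3 and 5 lay above WT 1, 2 and 5, with 57.4 in KO 5 beside 57.1 in WT 5, and the difference without the 3 libraries was 0.08 (SE 0.117; limma adjusted p = 0.836). Sar1b, the GTPase that starts coat assembly, had 101 to 144 in WT and 101 to 137 in KO. Sec23a and Sec24d, with 1 to 11 and 2 to 18 reads in each library, were not tested.

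Creb3l1, a membrane-bound transcription factor known to act on collagen and secretory genes, was read mainly in WT 3 and WT 4. It had 6.97, 2.9, 38.3, 65.0 and 13.7 normalised reads in WT and 8.59, 6.52, 3.69, 13.7 and 11.7 in KO. Its difference was -0.42 (SE 0.264; limma adjusted p = 0.51) with all libraries and 0.01 (SE 0.155; 0.992) without the 3. Sec24a, Sar1a and Creb3l2 matched no row and were not analysed here, and the gene listed as Ctage5 was read under its name Mia2.

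Extracellular processing held PCOLCE2, which passed in both sets. Of its 6 tested genes 1 fell with all libraries (0.878% of all tested genes) and 3 had an unadjusted p under 0.05 (13.5% of all). Over the 7 libraries 1 rose, 1 fell and 5 of 6 had an unadjusted p under 0.05, against 1.34%, 2.22% and 15.9% of all tested genes. The summed level of the class was 2388 ± 920 (SD, n = 5) for WT and 1300 ± 234 (SD, n = 5) for KO in normalised reads. PCOLCE2 alone made up most of that sum, with means of 1936 and 772. The median difference of the class was 0.01 with all libraries and 0.15 without the 3. In each set 3 of 6 differences were above 0 (52.1% and 51.6% of all tested genes). PCOLCE2 (ENSRNOG00000046848), which encodes an enhancer of the proteases that cleave the procollagen C-propeptide, had 1193, 1226, 2768, 2866 and 1625 normalised reads in WT and 922, 915, 659, 808 and 557 in KO. Every KO library lay below every WT library. The mean went from 1936 ± 823 to 772 ± 161 (SD, n = 5 each), a 2.51-fold fall, with a difference of -1.20 (SE 0.236; limma adjusted p = 0.0207). The call ended without KO 2, KO 3 or KO 5 (limma adjusted p 0.05, 0.0831 and 0.0828). In the 7 libraries the fall was 1.77-fold, from 1348 ± 240 (SD, n = 3) to 763 ± 184 (SD, n = 4; difference -0.80, SE 0.129, limma adjusted p = 0.000339), and the call held when any 1 of the 7 was also left out (adjusted p up to 0.00815).

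Pcolce, which encodes the other procollagen C-proteinase enhancer, had 13.9, 29.0, 141, 139 and 58.1 normalised reads in WT and 92.3, 80.4, 93.2, 182 and 35 in KO. WT 3, WT 4 and KO 4 were its highest libraries, and KO 5 lay below WT 5. With all libraries the difference was 0.36 (SE 0.358; limma adjusted p = 0.683). Over the 7 libraries Pcolce rose 2.23-fold, from 33.7 ± 22.5 (SD, n = 3) to 75.2 ± 27.5 (SD, n = 4; difference 0.73, SE 0.196, limma adjusted p = 0.0338). The lowest library held 16 reads. The call ended without WT 1, WT 2, KO 1, KO 2 or KO 3 as well (limma adjusted p up to 0.256) and with quantile normalization (0.0546).

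Within each library the ratio of PCOLCE2 to Pcolce reads does not depend on the size factor. It was 85.6, 42.2, 19.6, 20.7 and 27.9 in WT and 9.99, 11.4, 7.07, 4.45 and 15.9 in KO. The groups did not overlap, with a mean log2 ratio of 5.06 ± 0.879 (SD, n = 5) for WT against 3.16 ± 0.701 (SD, n = 5) for KO. The ratio of Mia3 to Mia2 was 5.23, 4.91, 3.72, 4.34 and 5.94 in WT and 4.23, 3.18, 2.92, 4.03 and 3.77 in KO, and the groups overlapped through WT 3 but not among the 7 libraries. The log2 ratio of Plod3 to Plod1 averaged 0.80 ± 0.118 in WT and 0.53 ± 0.178 in KO. It overlapped through WT 5 and KO 4 but not among the 7 libraries, where KO lay below WT. The ratios P4ha1 to P4ha2 and Plod2 to Plod1 overlapped in both sets. PCOLCE2 by itself did not overlap in either set, nor did Mia3 among the 7 libraries. The 85.6 of WT 1 rests on 16 reads of Pcolce. Among the 7 libraries 14.6% of all tested genes did not overlap, and no such share was computed for ratios of other gene pairs. These ratios are descriptions, and no test was run on them.

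**Figure D4:**
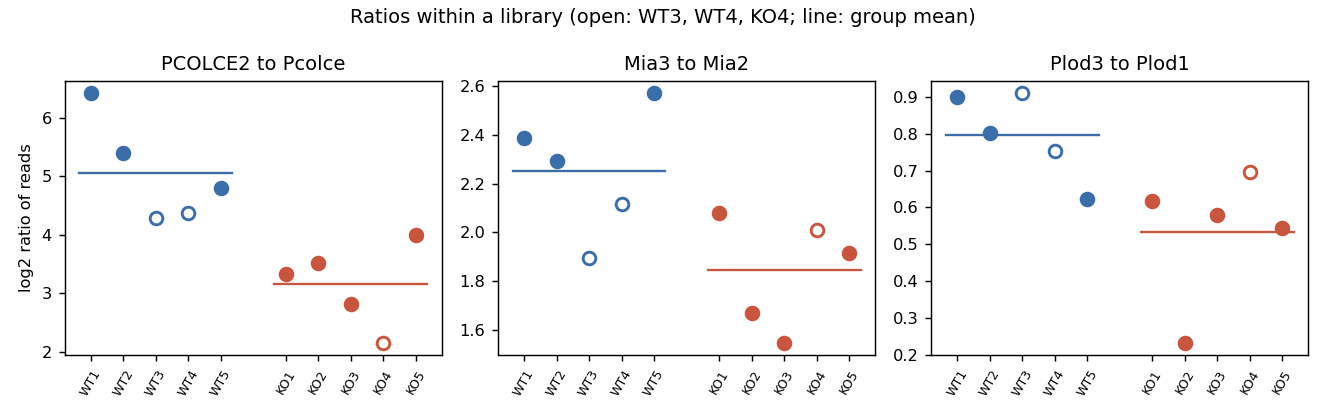
The log2 ratio of reads of related genes in each library, with WT in blue, KO in red, open symbols for WT 3, WT 4 and KO 4, and a line at the group mean. For PCOLCE2 to Pcolce every KO point lies below every WT point, with 3.99 as the highest KO and 4.29 as the lowest WT value.

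Bmp1, the C-propeptide protease that the enhancers assist, had 42.6 to 54.7 normalised reads in WT and 32.3 to 60.1 in KO. Its difference was -0.05 (95% interval -0.29 to 0.19) with all libraries and -0.01 (-0.29 to 0.27) without the 3. The N-propeptide proteases Adamts2, Adamts3 and Adamts14 matched no row and were not analysed here.

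The lysyl oxidase-like genes Loxl1, Loxl2 and Loxl3, whose products start collagen and elastin cross-links, did not pass in either set and pointed in different directions. Loxl1 had 16.6, 18.4, 43.8, 43.0 and 24.3 normalised reads in WT and 14.0, 11.9, 5.54, 36.1 and 11.7 in KO. KO 4 was the KO library within the WT range. Its difference was -0.42 (SE 0.188; limma adjusted p = 0.339) with all libraries and -0.34 (SE 0.14; 0.204) without the 3. Loxl3 had 234, 281, 193, 219 and 256 in WT and 347, 369, 273, 231 and 330 in KO, so that KO 1, 2 and 5 exceeded all WT libraries. Its difference was 0.33 (SE 0.125; limma adjusted p = 0.246) with all libraries and 0.31 (SE 0.1; 0.0865) without the 3. Loxl2 had 21.8, 19.4, 99.6, 121 and 37.0 in WT and 59.0, 69.5, 35.1, 93.7 and 27.8 in KO. WT 3, WT 4 and KO 4 were its 3 highest libraries, and its difference was 0.07 (SE 0.297) with all libraries and 0.45 (SE 0.163; limma adjusted p = 0.134) without the 3. Lox and Loxl4 matched no row and were not analysed here.

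**Figure D5:**
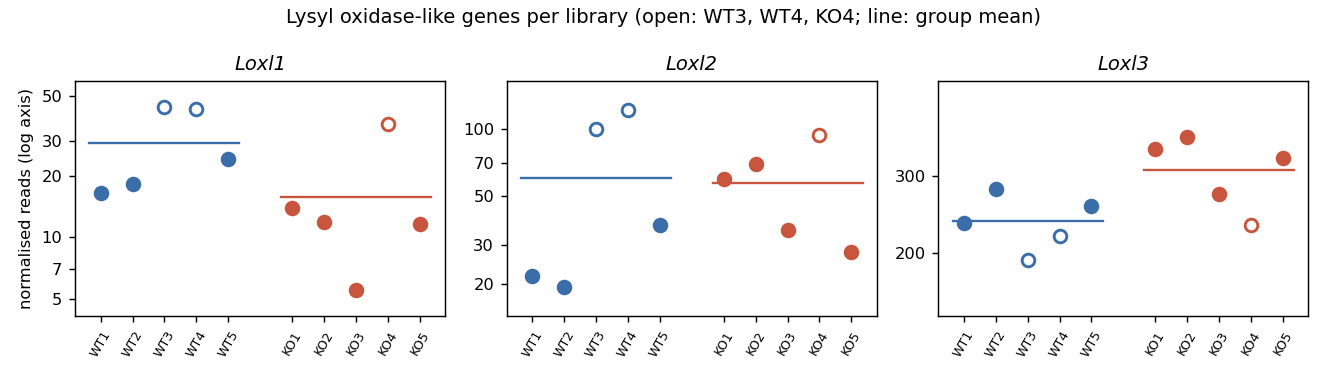
Normalised reads of Loxl1, Loxl2 and Loxl3 in each library on a log axis, with WT in blue, KO in red, open symbols for WT 3, WT 4 and KO 4, and a line at the group mean. WT 3, WT 4 and KO 4 are the 3 highest libraries of Loxl1 and Loxl2, whereas Loxl3 is highest in KO 1, 2 and 5.

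Other genes of the route were read from lists that complete each step. Of 15 further tested genes of modification and folding in the endoplasmic reticulum none passed in either set with limma or limma-voom (median -0.12 with all libraries and 0.04 without the 3). At an unadjusted p under 0.05 limma counted 1 of the 15 with all libraries and 3 without the 3, against 13.5% and 15.9% of all tested genes, and the largest difference was that of Tent5a, -0.58 (SE 0.16; limma adjusted p = 0.118). Of 22 further tested genes of the exit from the endoplasmic reticulum none passed with all libraries with limma or limma-voom, with 2 at an unadjusted p under 0.05 (13.5% of all) and Ergic2 the largest at 0.31 (SE 0.0988; limma adjusted p = 0.168). In the 7 libraries 1 of the 22 fell (2.22% of all tested genes), and 3 had an unadjusted p under 0.05 with limma (15.9% of all). The gene that fell was Stx18, a SNARE protein of the endoplasmic reticulum, from 38.2 ± 2.36 (SD, n = 3) to 18.9 ± 2.01 (SD, n = 4; limma adjusted p = 0.0245). WT 3 and WT 4 had 12.0 and 17.2 normalised reads of Stx18, within the KO range of 11.7 to 21.5, and with all libraries it differed by -0.29 (limma adjusted p = 0.439).

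Of 11 further tested genes of fibril assembly and processing none passed with all libraries with limma or limma-voom, with 1 at an unadjusted p under 0.05 (13.5% of all). Fbln1 had the largest difference, -0.58 (SE 0.2; limma adjusted p = 0.208). Over the 7 libraries 1 of the 11 rose (1.34% of all tested genes), and 5 had an unadjusted p under 0.05 with limma (15.9% of all). The gene that rose was Emilin1, an elastic fibre glycoprotein, by 2.01-fold (difference 0.77, SE 0.184; limma adjusted p = 0.0143). With all libraries Emilin1 differed by 0.40 (SE 0.403; limma adjusted p = 0.685), and WT 3, WT 4 and KO 4 were its highest libraries.

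Among 13 tested collagen chains, the clients of this route, 2 fell with all libraries, Col11a1 and Col6a2, against 0.878% of all tested genes, and the median was -0.31. Col11a1, a chain of collagen XI, had 7130, 6783, 15272, 15001 and 7996 normalised reads in WT and 4153, 4268, 4101, 5854 and 3586 in KO (difference -1.16, SE 0.229; limma adjusted p = 0.0207). As for PCOLCE2, every KO library lay below every WT library and WT 3 and WT 4 were highest. Among the 7 libraries 4 of 13 passed, against 3.56% of all tested genes, with a median of -0.14. Col11a1 and Col6a2 fell by 0.85 and 0.92. Col5a3, a chain of collagen V with 7 to 41 reads in each library, fell by 0.52 (limma adjusted p = 0.0493). Col9a2, a chain of collagen IX, rose by 0.33 (limma adjusted p = 0.0483). With all libraries Col9a2 differed by -0.03 (SE 0.214, limma adjusted p = 0.968). WT 3 and WT 4, at 8845 and 8765 normalised reads, lay above every KO library of Col9a2.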

How the data were processed

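The members, the gene lists and the leaving out of WT 3, WT 4 and KO 4 were chosen with earlier results of these data known. The submitters' processing notes name bcl2fastq, the aligner STAR 2.7.11a, the counter HTSeq and the genome build rn6. Whether counting used strand, what tool transformed the counts and how genes were filtered is not given by these notes or the labels; overlapping genes may share reads. Per the table itself, the authors deposited variance-stabilized, log2-like values normalized for library size, for 10 libraries. The closed form of the transformation was inverted from the lowest value, 4.42 (a count of 0), which put 100% of values within 0.01 reads of a whole read.

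A gene was tested if its mean lay 1 or more above that lowest value, which is near 10.7 normalised reads (8431 of 10184 genes), with limma 3.58.1 in R 4.3.3 (empirical Bayes, intensity trend, two-sided, no block). The fit was tested on simulated counts of independent libraries, with no shift shared by WT 3, WT 4 and KO 4. How the fit behaves under such a shift was not tested. Intervals are 95% intervals of that fit. Described one by one were members that were called, that had an unadjusted p under 0.05 or values that did not overlap in either set of libraries, or that were among the 4 largest differences of their class. Genes of the other lists were named if called, and where no gene was called with all libraries the largest difference of the list was named. RefSeq promoter sequences (GRCr8) were matched by symbol. Their motifs, 9 in all, were searched on both strands, and those shown in capitals were chosen with their counts known. TGACGT and ACGTG share letters, as do CACGTG and ACGTG, and the stress response element contains CCAAT. Figures were drawn with matplotlib 3.10.9.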

Additional observations from a re-analysis of the deposited data

Results flagged for a closer look

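Of 62 groups of 5 libraries (31 genes, WT and KO), 2 held a library far from the other 4, where chance flags about 1 in 20. The rule takes the gap of 1 library only, so 2 libraries that lie apart together can go unflagged. WT 3 and WT 4 were the 2 highest WT libraries for 21 of the 28 tested members, and the rule does not measure that departure. Sec24b in KO 4 had 43.9 normalised reads (45 reads), below the other KO libraries, with a gap of 0.922 of the range of the group. P3h2 in WT 2 had 2.9 normalised reads (3 reads), with a gap of 0.737 of the range, at a depth where 1 read moves the value by a large part.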

How the results depend on the processing

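With all libraries 96 genes were called. The count was 60 with the stricter filter, 219 with array quality weights, 300 without WT 3, WT 4 and KO 4, and 33 to 101 when 1 library was left out, with 33 without KO 3, 37 without KO 2 or KO 5, 53 without KO 1 and 62 without WT 3. The count of members, 1, was 3 with array quality weights (PCOLCE2, Sec31a and Mia3), 6 without the 3 libraries and 0 to 1 when 1 library was left out (0 without KO 2, KO 3 or KO 5). Without the 3 libraries it was 1 to 8 when a further library was left out (1 without WT 1 or WT 2, 3 without KO 1 or KO 2, 8 without KO 5), an alternative chosen after seeing the data, and 6 with limma-voom and 5 with quantile normalization, chosen likewise. Correlations of the deviations of libraries with the same replicate number were -0.29 to 0.59. With 5 numbers, and with WT 3 and WT 4 far from the other WT libraries, they cannot decide whether the numbers pair the libraries. With the number as a block 136 genes and 1 member were called, and 2 of the 5 KO libraries correlated best with the WT library of their own number. The cause of these shifts was not tested. The median difference of the hydroxylases and chaperones was -0.07 to -0.05 with the settings that kept all libraries at equal weight, -0.14 to 0.03 when 1 library was left out (above 0 without WT 3, WT 4 or KO 5), 0.12 with array quality weights and 0.17 without the 3 libraries. That of COPII export lay between -0.04 and 0.08 and changed sign with quantile normalization and without WT 2, WT 4, WT 5 or KO 1. That of extracellular processing was 0.01 with all libraries. It ran from -0.09 without WT 2 to 0.15 with array quality weights or without the 3 libraries. It was below 0 without WT 1, WT 2, WT 5, KO 1, KO 2 or KO 4. Depth limits the genes with few reads, among them Pcolce, Loxl1 and Creb3l1.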
